A study of Rattus norvegicus with 14 samples.

Results

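Fatty acid synthase (Fasn), stearoyl-CoA desaturase (Scd), the elongase Elovl5, the mitochondrial glycerol-3-phosphate acyltransferase Gpam and the transcription factor Srebf1 were followed through livers of rats fed orotic acid. They were chosen as genes of fatty acid and triglyceride synthesis, through the platform annotation: a probe set belonged to a gene if that gene was its only symbol. The 5 genes had 11 probe sets on the array, and all 5 were among the 1909 features tested, out of 3181 on the array. Liver RNA was measured on 14 Affymetrix arrays, each carrying the biotin-labelled RNA of 1 sample, with a group of short probes (a probe set) for each transcript. Kyoto rats (a strain given in the labels by that name alone) had 1% orotic acid in their chow, eaten freely, for 1, 3 or 14 days, with 2 arrays a group. Wistar rats had the same diet for 3 days (2 arrays) or 14 days (3 arrays), or chow without it (the control, 3 arrays). All RNA came from the left lateral lobe of the liver; the labels used here give no age. Unfed Kyoto rats and day 1 in Wistar rats were not analysed here. Whether each array holds its own animal is not stated in so many words, so the p-values below measure only the spread between these samples, which may be technical.

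Orotic acid is an intermediate of pyrimidine synthesis that gives rats a reversible fatty liver when fed. Liver cells make palmitate from acetyl-CoA and malonyl-CoA on Fasn. Elongases such as Elovl5 lengthen fatty acids, Scd puts in the double bond that turns stearate into oleate, and Gpam attaches the first acyl chain to glycerol-3-phosphate, the entry to triglyceride synthesis. Srebf1 encodes SREBP-1, which switches on much of this pathway in the liver in response to insulin and which itself is made as a membrane-bound precursor. In bulk liver RNA, fewer cells of a type and less RNA per cell cannot be told apart.

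The measurements are probe set signals, intensities in arbitrary units that were put on a common scale between arrays (quantile normalisation), and their differences are log2 differences from 1 limma fit of 6 group means over all 14 arrays. Where a gene had more than 1 probe set, the brightest on average stood for it. Signals below 115, the 25th percentile of all scaled values, were set to that floor, and the number of arrays limits the precision. The array labelled Wistar control 2 stood apart from its label: across genes it correlated most highly with a Kyoto array (Kyoto day 3 replicate 2, r = 0.96), and its Mst1 signal was 7.33 on the log2 scale, against a mean of 11.08 on the other control arrays and 6.85 to 8.1 on Kyoto arrays. Results of the 5 genes against the controls are therefore also given without it. The least typical array was Kyoto day 1 replicate 1, whose median correlation with the rest was 0.895. Wistar day 14 replicate 3 and Wistar control 3 each correlated most highly with the other (r = 0.97). Both of them and Kyoto day 1 replicate 1 are the 3 arrays with blank rows. A lot batch is labelled for 11 arrays, and for 3 it is not given: replicate 2 of Wistar day 3, replicate 3 of Wistar day 14 and Wistar control 3. Differences from control within these labels rest on few arrays. With no batch given they set 1 fed array against 1 control. With lot batch 1 they set 1 against 2 at day 3 and 2 against 2 at day 14. Wistar control 2 is among the lot batch 1 controls. Hepatocyte markers were high on every array: 9 of 10 listed genes were on the array, none at the floor throughout, with summed signals of 141919 to 170042.

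The promoters of the genes on which the results turn are shown because Srebf1 and its partners act at such sites. The RefSeq promoter entries used here covered 4 of the 5 genes, all but Fasn (build GRCr8, 250 bases before and 50 after the annotated start). In capitals are matches on either strand to CCAAT (bound by NF-Y; ATTGG on the other strand), GGGCGG (bound by Sp1), CACGTG (an E-box) and TCACNCCAC (a sterol response element). No matches overlapped. Elovl5 lies at chr8:87670914-87671213, + strand. Gpam lies at chr1:264175862-264176161, - strand. Scd lies at chr1:253231682-253231981, - strand.
Elovl5: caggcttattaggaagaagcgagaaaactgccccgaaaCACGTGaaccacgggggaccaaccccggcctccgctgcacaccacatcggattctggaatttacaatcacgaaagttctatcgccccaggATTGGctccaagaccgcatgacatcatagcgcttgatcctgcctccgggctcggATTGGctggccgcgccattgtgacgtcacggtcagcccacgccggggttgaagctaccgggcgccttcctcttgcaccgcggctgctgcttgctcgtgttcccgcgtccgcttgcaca
Gpam: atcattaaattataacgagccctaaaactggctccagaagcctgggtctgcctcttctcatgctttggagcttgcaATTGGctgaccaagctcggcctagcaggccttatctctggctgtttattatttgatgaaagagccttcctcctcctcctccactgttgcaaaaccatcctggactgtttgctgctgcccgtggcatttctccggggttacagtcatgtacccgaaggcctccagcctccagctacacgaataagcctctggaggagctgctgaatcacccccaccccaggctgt
Scd: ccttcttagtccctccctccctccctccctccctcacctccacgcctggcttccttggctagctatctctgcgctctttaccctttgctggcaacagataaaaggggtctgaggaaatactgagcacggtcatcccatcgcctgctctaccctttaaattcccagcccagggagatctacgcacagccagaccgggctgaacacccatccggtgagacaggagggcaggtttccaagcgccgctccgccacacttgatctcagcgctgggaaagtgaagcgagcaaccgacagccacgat
The Elovl5 promoter held 2 matches to CCAAT, at bases -122 to -118 and -68 to -64 from the start and both on the opposite strand, and 1 to CACGTG at -212 to -207. The Gpam promoter held 1 match to CCAAT at -174 to -170. The Scd window held 0 matches to the 4 motifs. Srebf1 has a pair of annotated promoters on chromosome 10, at 45518961 to 45519260 and 45529115 to 45529414 on the - strand. They held 5 and 4 matches, 3 of them GGGCGG in each. Among all 33469 rat promoters of this length, 37.49% held CCAAT, 33.06% GGGCGG, 6.42% CACGTG and 1.12% TCACNCCAC. These matches describe letters, and binding was not measured.

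Elovl5 separated the controls from every fed array. Its signal in Kyoto livers was 3349 and 3919 at day 1, 2569 and 3359 at day 3, and 2569 and 3497 at day 14. In Wistar livers it was 4977, 4783 and 5314 in the controls, 3178 and 3617 at day 3, and 3054, 3398 and 3246 at day 14. All 11 fed arrays, of both strains, lay below all 3 controls, and the fed groups overlapped each other. As log2 levels, the highest fed group was Kyoto day 1 at 11.82 ± 0.16 (SD, n = 2), against 12.29 ± 0.08 (SD, n = 3) in the controls, which it did not overlap. Among the fed groups, neighbours in the order (Kyoto day 1, Wistar day 3, Wistar day 14, Kyoto day 14, Kyoto day 3) overlapped. Of all features tested, 0.786% had all fed arrays below all controls, 15 in all. Among the 11 of these with 1 gene symbol, Elovl5 had the second widest gap, 0.29 on the log2 scale, after 0.34 for Gucy1b2, a guanylate cyclase subunit. This overlap was looked for after the values were seen, and Kyoto arrays enter it against controls of the other strain.

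Against the controls, the log2 difference of Elovl5 (± SE) was -0.57 ± 0.21 at Wistar day 3 (0.675-fold, adjusted p = 0.349) and -0.64 ± 0.19 at Wistar day 14 (0.643-fold, 95% interval -1.03 to -0.24, adjusted p = 0.634). Neither passed the threshold of 0.05. The day 14 difference was the 11th smallest by unadjusted p of all features. As the mean of days 3 and 14, fed Wistar livers differed by -0.60 ± 0.17 (0.659-fold, adjusted p = 0.219), a comparison chosen after the data were seen. The groups of that comparison did not overlap, and 3.93% of all features lay wholly below control in the same way. An exact two-sided permutation test of the 5 fed against the 3 control arrays gave p = 0.0179 (unadjusted), the smallest it can give. Only groups without overlap can reach that value, so it largely restates the separation. Without Wistar control 2 the differences were -0.60 at day 3, -0.67 at day 14 and -0.64 for the mean of both. On the signals as the authors scaled them the day 3 difference was larger, -0.89 (adjusted p = 0.089), and that of day 14 was -0.73 (adjusted p = 0.482). On arrays of lot batch 1 they were -0.62 and -0.60, and on those with no batch given -0.56 and -0.71. The levels at day 14 and day 3 of either strain were not distinguished: the difference was -0.07 ± 0.21 (95% interval -0.52 to 0.38) in Wistar and 0.03 ± 0.23 (-0.46 to 0.52) in Kyoto livers.

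**Figure D1:**
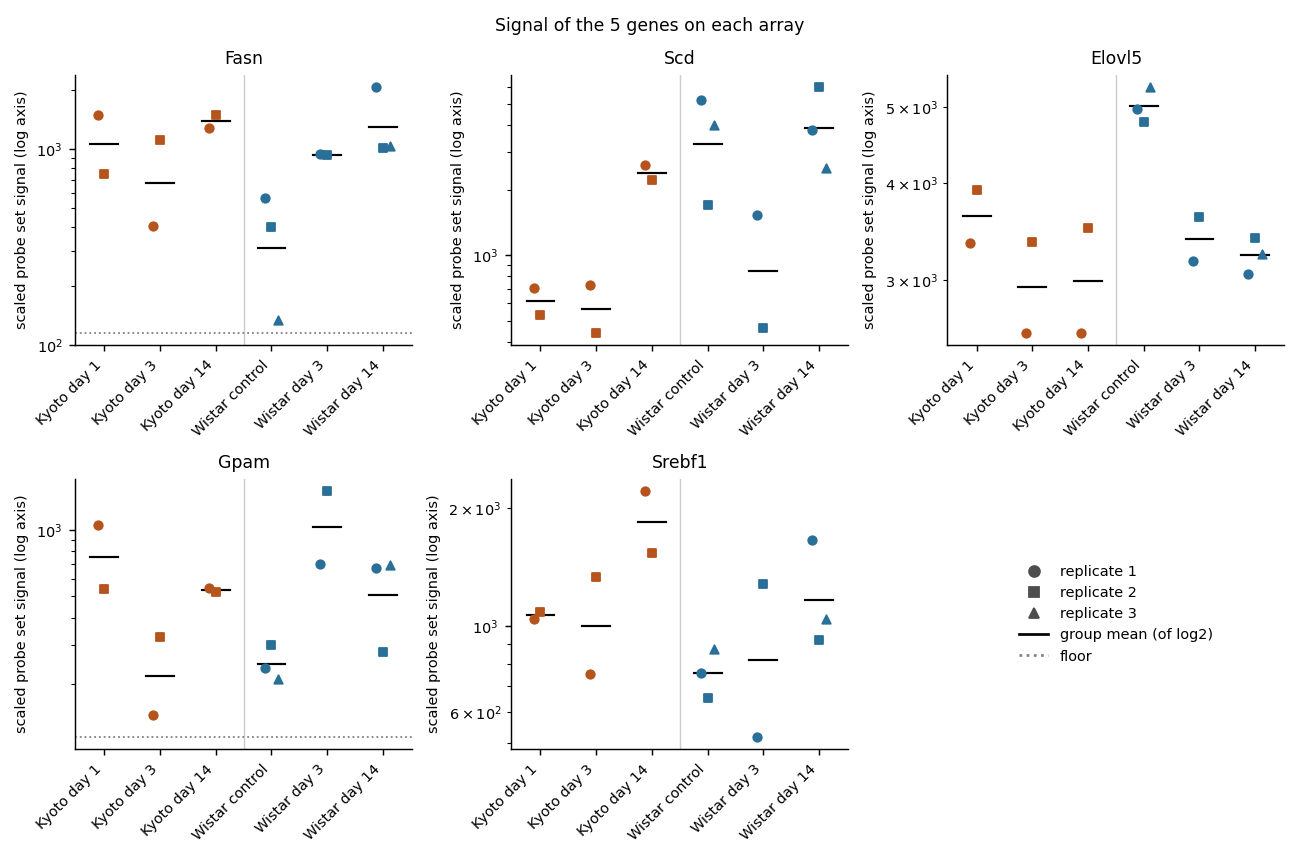
Scaled probe set signal (log axis, arbitrary units) of the 5 genes on each array, by strain and day, Kyoto in orange and Wistar in blue. Points are arrays, shaped by replicate, and bars are group means of log2 signals. The dotted line, drawn for Fasn and Gpam only, is the floor of 115. For Elovl5 all 11 fed arrays lie below the 3 controls, and for Scd the arrays of Kyoto days 1 and 3 lie below those of Kyoto day 14.

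Scd had its 3 lowest group means at days 1 and 3 of feeding. In Kyoto livers it was 706 and 531 at day 1, 727 and 439 at day 3, and 2607 and 2227 at day 14. In Wistar livers it was 5198, 1704 and 3980.2 in the controls, 1539.7 and 462 at day 3, and 3801, 5997 and 2523 at day 14. Both day 14 arrays of Kyoto rats lay above all 4 earlier ones, and all 3 of Wistar rats above both day 3 arrays, while the Wistar day 14 and control arrays overlapped. By group mean the order was Wistar day 14, Wistar control, Kyoto day 14, Wistar day 3, Kyoto day 1 and Kyoto day 3. Neighbours overlapped except Kyoto day 14, which lay wholly above Wistar day 3.

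Scd at day 14 stood 2.19 ± 0.53 above day 3 in Wistar livers on the log2 scale (4.58-fold, 95% interval 1.05 to 3.34), the smallest unadjusted p of all features in that comparison but with an adjusted p of 0.994. In Kyoto livers the day 14 difference was 2.09 ± 0.58 from day 3 (4.26-fold, adjusted p = 0.713) and 1.98 ± 0.58 from day 1 (3.94-fold, adjusted p = 0.249). None passed. The strain by time interaction, (Kyoto day 14 minus day 3) minus (Wistar day 14 minus day 3), was -0.10 ± 0.79, with an interval of -1.79 to 1.59 that leaves room for large differences either way. At Wistar day 3 the difference from the controls was -1.96 ± 0.53 (0.257-fold, adjusted p = 0.242). One array weighed heavily: without Wistar day 3 replicate 2 it was -1.09, and the day 14 difference from day 3 was 1.33. Without Wistar control 2 it was -2.43. At Wistar day 14 the difference from the controls was 0.24 ± 0.48, and -0.24 without Wistar control 2. On arrays of lot batch 1 Scd differed from control by -0.95 at day 3 and 0.68 at day 14. On arrays with no batch given, 1 fed array against 1 control, Scd differed by -3.11 and -0.66. The lot batch 1 controls include Wistar control 2, at 1704 units, against 5198 on Wistar control 1. The fed Wistar mean differed by -0.86 ± 0.43, and by -1.33 without Wistar control 2. A second Scd probe set was at the floor on all 14 arrays. One probe set shared by 4 Scd genes (Scd, Scd2, Scd3 and Scd4) is not counted among the 11, and it was at the floor on 7 arrays, with a highest signal of 376 on Wistar day 14 replicate 3.

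Fasn has a pair of probe sets that did not tell the same story. The brighter, X13527cds_s_at, which represents the gene, read 1505 and 750.03 at Kyoto day 1, 404 and 1111 at day 3, and 1289.8 and 1499 at day 14. In Wistar livers it read 565, 399 and 134 in the controls, 940.4 and 932 at day 3, and 2085, 1015 and 1034 at day 14. All 5 fed Wistar arrays lay above all 3 controls, but Kyoto day 3 replicate 1 lay among the controls. The other probe set, M76767_s_at, read 411 and 532 at Kyoto day 1, 431 and 493 at day 3, and 654 and 821 at day 14. In Wistar livers it read 1062, 341 and 673 in the controls, 661 and 392 at day 3, and 1695, 1602 and 661 at day 14. Its fed Wistar and control arrays overlapped at both days. Over the 14 arrays, which share the 6 groups, the pair correlated with r = 0.294 and rho = 0.266. Without the 2 arrays farthest from the median of M76767_s_at alone, r was 0.029.

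On X13527cds_s_at, Fasn stood 2.06 ± 0.50 above control at Wistar day 14 (log2 difference, 4.17-fold, 95% interval 0.98 to 3.14, adjusted p = 0.545) and 1.59 ± 0.56 above it at day 3 (3.00-fold, adjusted p = 0.319). The fed Wistar mean differed by 1.82 ± 0.45 (3.54-fold, adjusted p = 0.174). Exact permutation of the 5 fed against the 3 control arrays gave the smallest p possible, 0.0179. Only groups without overlap can reach it, and 1.73% of all features lay wholly above control. On M76767_s_at the differences were 0.96 at day 14, -0.29 at day 3 and 0.33 for the fed mean. Without Wistar control 2 these were 0.52, -0.73 and -0.10, so the fed mean changed sign. With all arrays, exact permutation of the plain mean of the 5 fed arrays against the controls, a difference of 0.46, gave p = 0.482. With the mean of both probe sets the day 3 difference was 0.65. Wistar control 3, the lowest array on the brighter probe set, set much of its size: without it the fed difference was 1.22, and without Wistar control 2 it was 2.00 (1.77 at day 3 and 2.24 at day 14). On arrays of lot batch 1 the brighter probe set differed from control by 0.99 at day 3 and 1.62 at day 14, against 2.80 and 2.95 on arrays with no batch given. In Kyoto livers the day 14 difference from day 3 was 1.05 ± 0.62 on X13527cds_s_at and 0.67 on M76767_s_at. Without Kyoto day 3 replicate 1 it was 0.32 on the brighter one. Fed Kyoto against fed Wistar livers (averaging their differences at days 3 and 14) gave -0.19 ± 0.42, with an interval of -1.09 to 0.71.

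**Figure D2:**
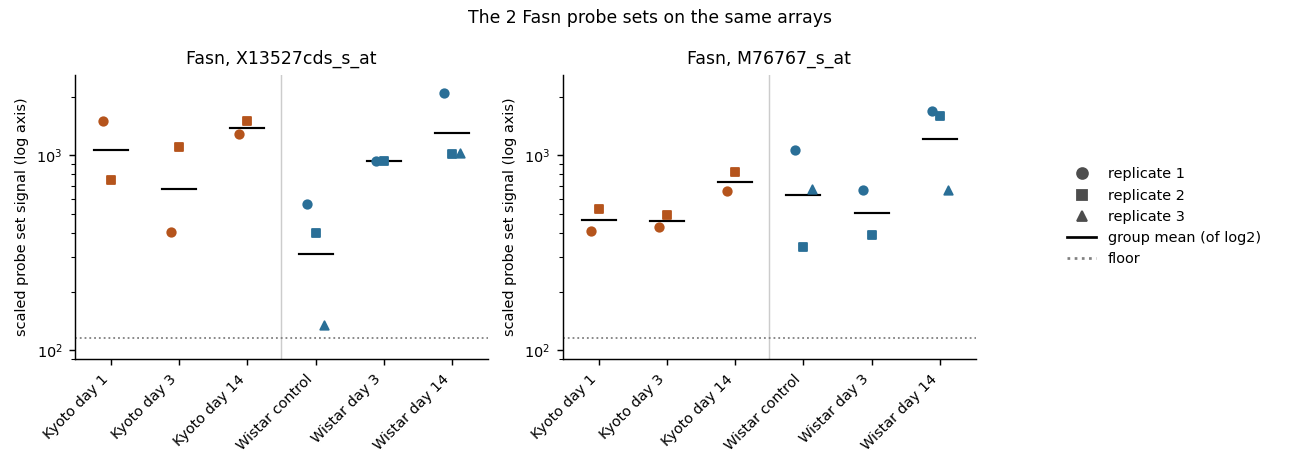
Scaled signal (log axis, arbitrary units) of both Fasn probe sets on the same 14 arrays, points shaped by replicate and bars at group means. On X13527cds_s_at the 5 fed Wistar arrays lie above the 3 controls, and on M76767_s_at they overlap them.

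Gpam was highest at Wistar day 3. The probe set that represents it, U36773_at, read 1055 and 538 at Kyoto day 1, 145 and 326 at day 3, and 546 and 526 at day 14. In Wistar livers it read 236, 303 and 211 in the controls, 704 and 1503 at day 3, and 672, 281 and 698 at day 14. Both Wistar day 3 arrays lay above all controls, and both Kyoto day 3 arrays below all other Kyoto arrays. Neighbouring groups overlapped all along the order of means, from Wistar day 3 through Kyoto day 1, Kyoto day 14, Wistar day 14 and Wistar control to Kyoto day 3.

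At Wistar day 3 Gpam stood 2.06 ± 0.47 above control (log2 difference, 4.16-fold, 95% interval 1.05 to 3.06, adjusted p = 0.0996). It was the 11th smallest unadjusted p and, among the 5 genes in all comparisons, the smallest adjusted p. Array weights, which give arrays that deviate more a smaller say, brought it past the threshold, at 2.13. Without Wistar control 2 it was 2.20 (adjusted p = 0.186), and the day 14 and fed mean differences were 1.19 and 1.70. With the mean of all 5 probe sets the day 3 difference was 1.26. On arrays of lot batch 1 it was 1.40 at day 3 and 0.70 at day 14, against 2.83 and 1.73 on arrays with no batch given. With all arrays, the difference at Wistar day 14 was 1.04 ± 0.42 (adjusted p = 0.895), and the fed Wistar mean differed by 1.55 ± 0.38 (2.93-fold, adjusted p = 0.166). Exact permutation of the plain mean of the 5 fed arrays against the controls, a difference of 1.45, gave p = 0.0893. At Kyoto day 3 the difference from day 1 was -1.79 ± 0.51 (0.288-fold, adjusted p = 0.782), and at Kyoto day 14 the difference from day 3 was 1.30 ± 0.51 (adjusted p = 0.971). That value was 0.72 without Kyoto day 3 replicate 1 and 0.46 with the mean of all Gpam probe sets.

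The strains ran opposite ways on Gpam between day 3 and day 14. Kyoto day 14 lay above Kyoto day 3, and the Wistar day 14 difference from day 3 was -1.02 ± 0.47 (0.495-fold). The interaction was 2.32 ± 0.69 (95% interval 0.83 to 3.81), the 11th smallest unadjusted p, and did not pass (adjusted p = 0.850). With each array left out in turn it ran from 1.73 to 2.91, and the Wistar difference was -0.47 without Wistar day 3 replicate 2 and -0.59 without Wistar day 14 replicate 2. Over both days, fed Kyoto livers differed from fed Wistar livers by -1.08 ± 0.35 (0.472-fold, adjusted p = 0.115). It was -0.79 without Kyoto day 3 replicate 1 (adjusted p = 0.403), -0.81 without Wistar day 3 replicate 2 (adjusted p = 0.393), -0.91 with the lot batch as a block (adjusted p = 0.347) and -0.73 with the mean of all probe sets (adjusted p = 0.140). It passed with array weights (-1.12) and without Wistar day 14 replicate 2 (-1.30). Sequence differences between the strains under the probes were not tested.

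The other 4 Gpam probe sets gave the same signs where they gave any. At Wistar day 3 all 5 stood above control, the others by 0.45 to 1.42. At Kyoto day 3 all 5 stood below day 1, the others by log2 differences of -0.76 to -0.10. In the interaction all 5 were positive, the others at 0.45 to 1.24, against 2.32 for the brightest. With the mean of all 5 it was 1.14. They were dimmer, with 1 to 12 of the 14 arrays at the floor, and setting values to the floor can shrink a difference. U36772_at, with 1 array at the floor, differed by 1.03 from control at Wistar day 3 and by 0.75 in the interaction. The part of the floor in these sizes was not tested. The log2 signals of pairs of Gpam probe sets correlated with r between 0.518 and 0.923 over the 14 arrays.

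**Figure D3:**
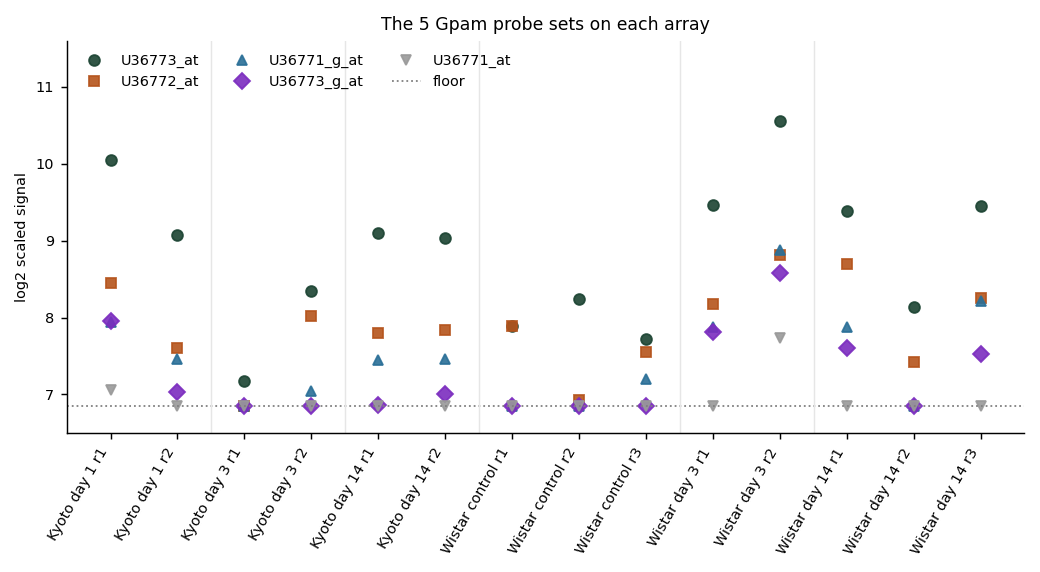
log2 scaled signal of the 5 Gpam probe sets on each array, by strain and day (r1 to r3 are replicates). The dotted line is the floor of 6.85. Wistar day 3 replicate 2 is the highest array on U36773_at, at 1503 units, and Kyoto day 3 replicate 1 the lowest, at 145 units.

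Srebf1 had its highest mean at Kyoto day 14. Its signal was 1043 and 1086 at Kyoto day 1, 754 and 1329.9 at day 3, and 2211 and 1539.7 at day 14. In Wistar livers it was 759, 652 and 870.01 in the controls, 519 and 1279.6 at day 3, and 1655, 919 and 1043 at day 14. All 3 Wistar day 14 arrays lay above all controls, and both Kyoto day 14 arrays above all 4 earlier ones, while the 2 Wistar day 3 arrays lay on both sides of the controls. The log2 difference was 0.63 ± 0.34 for Wistar day 14 against control (95% interval -0.11 to 1.36, adjusted p = 0.990) and 0.11 ± 0.38 for Wistar day 3. Kyoto day 14 differed by 0.88 ± 0.42 from day 3 and by 0.79 ± 0.42 from day 1 (adjusted p = 0.971 and 0.530). Without Kyoto day 3 replicate 1 the first of these was 0.47. Without Wistar day 14 replicate 1 the difference of Wistar day 14 from control was 0.37, and without Wistar control 2 it was 0.52. The Wistar day 3 difference was 0.004 without Wistar control 2, and it was -0.44 on arrays of lot batch 1, against 0.56 on arrays with no batch given. At day 14 those values were 0.81 and 0.26. By group mean the order ran from Kyoto day 14 through Wistar day 14, Kyoto day 1, Kyoto day 3 and Wistar day 3 to Wistar control, with every neighbouring pair overlapping.

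Read together, 0 of the 5 genes passed an adjusted p of 0.05 in any comparison by limma, where very few features did. At Wistar day 3 against control 0% of all features passed, with 4 of the genes (Elovl5, Fasn, Gpam and Scd) and 200 features (10.5%) under an unadjusted p of 0.05. At Wistar day 14 against control 0% passed as well, with 3 of the genes (Elovl5, Fasn and Gpam) and 99 features (5.19%) under it. Between Wistar days 14 and 3, Kyoto days 3 and 1, and Kyoto days 14 and 3, 0% passed each time, and 2, 1 and 2 of the genes were under the unadjusted threshold, as were 4.45%, 5.87% and 4.61% of all features. In the interaction 0% passed, and Gpam alone of the 5 was under it, as were 5.19% of all features. Kyoto day 14 against day 1 had 0.0524% passing, fed Kyoto against fed Wistar 3.25% and fed Wistar against control 0.262%, with 1 (Scd), 1 (Gpam) and 3 (Elovl5, Fasn and Gpam) of the genes under an unadjusted p of 0.05, as were 10.2%, 14.4% and 9.06% of all features. Comparisons against control share the same 3 arrays, and those of 1 strain share day 3 or day 14 arrays, so they are not independent.

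Counts of genes whose groups did not overlap stand against a high background, as the groups are small. At Wistar day 3 Fasn and Gpam lay wholly above control, as did 14.5% of all features, and Elovl5 and Scd wholly below it, as did 19.6%. At Wistar day 14 Fasn and Srebf1 lay wholly above control (3.46% of features) and Elovl5 wholly below (6.08%). Between Wistar days 14 and 3, Scd and Fasn lay wholly higher at day 14 (11.5%) and Gpam wholly lower (8.54%). Gpam lay wholly lower at Kyoto day 3 than at day 1 (12.5%). At Kyoto day 14 Scd and Srebf1 lay wholly above day 1 (19.1%), and Fasn, Gpam, Scd and Srebf1 wholly above day 3, which 18.9% of features did. In fed Wistar livers of both days Fasn lay wholly above control (1.73%) and Elovl5 wholly below (3.93%). The differences of Kyoto day 14 from day 3 had a median of 1.05 over the 5 genes, against -0.02 over all features. All 5 were above 0, as were 47.4% of all features, but that of Elovl5, at 0.03, was -0.09 on the signals as the authors scaled them.

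**Figure D4:**
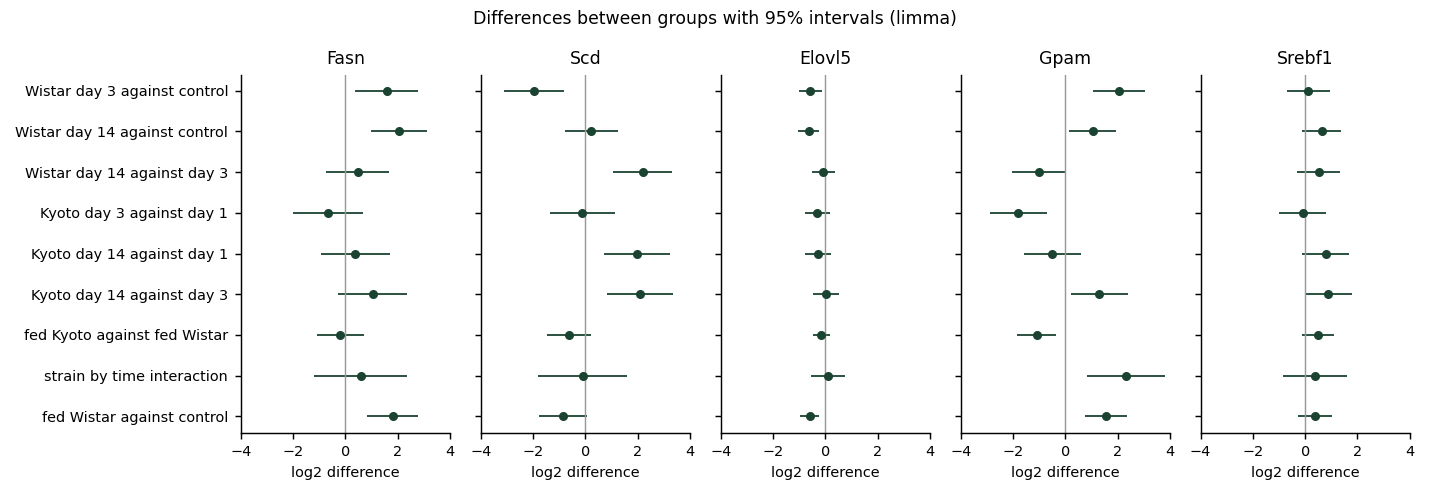
log2 differences (points) with 95% intervals (lines) from limma for the 5 genes in each comparison, the first group named minus the second. The Gpam difference of Wistar day 3 from control lies at 2.06, and the Elovl5 differences have the narrowest intervals.

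Other genes of the pathway were counted in lists by role. Of 11 genes that supply substrate and NADPH, 4 were tested, and 0 passed in any comparison. The smallest p of this list at Wistar day 3 was that of Acly, the ATP citrate lyase that makes acetyl-CoA, at -0.64 ± 0.30 against control, and it ran from -1.12 to -0.15 with single arrays left out. With the mean of all Acly probe sets it was -0.03. Of 21 genes of chain building, desaturation and activation, 8 were tested, Fasn, Scd and Elovl5 among them. The 1 gene that passed was Acsl1, a long-chain acyl-CoA synthetase that activates fatty acids. Acsl1 was lower in fed Kyoto than in fed Wistar livers, by a log2 difference of -0.83 ± 0.19 (0.561-fold, adjusted p = 0.0309). Its signal was 2440.4, 1409, 2895 and 3231 in Kyoto livers at days 3 and 14, against 4815, 4431, 4619, 3973 and 3237 in Wistar livers at those days. The lowest Wistar array, at 3237, lay just above the highest Kyoto array, at 3231. Acsl1 did not pass on the signals as the authors scaled them (adjusted p = 0.0567), with each array divided by its median (adjusted p = 0.0531), with every probe set as a feature (adjusted p = 0.0929), with the lot batch as a block (adjusted p = 0.0807), with every feature tested (adjusted p = 0.0898), or with any 1 of 7 of these 9 arrays left out (adjusted p between 0.0520 and 0.131). In that comparison 7 of the 8 genes, with Fasn, Scd and Elovl5 among the 7, were lower in Kyoto. The median of the 8 was -0.34 against 0.03 over all features, of which 54.6% were higher in Kyoto.

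Of 16 genes of triglyceride assembly 3 were tested: Gpam, Dgat1 (the last step) and Gpd1 (which makes glycerol-3-phosphate). None passed. The Gpd1 interaction was 1.07 ± 0.61 (adjusted p = 0.871), of the same sign as that of Gpam, and ran from 0.41 to 1.73 with single arrays left out. Dgat1 went the other way: of the 3 interactions 2 were above 0 and 1 below. Of 24 lipogenic regulators 7 were tested and 0 passed. Insig1, which holds SREBP precursors in the endoplasmic reticulum, had the smallest p of this list at Wistar day 3, at -1.08 ± 0.35 against control (0.474-fold, adjusted p = 0.286). At Wistar day 14 it was at -0.44 ± 0.31. Its interaction was -1.39 ± 0.52 (adjusted p = 0.857). Of 16 genes that respond to insulin or fasting 5 were tested and 0 passed. Among them Igfbp1, a binding protein that insulin represses, was at -2.18 ± 0.86 at Kyoto day 14 against day 1 (adjusted p = 0.409) and at -1.88 ± 0.86 against day 3. Cpt1a, which admits fatty acids to mitochondria, was at -1.06 ± 0.32 at Wistar day 14 against day 3 (adjusted p = 0.994). The Cpt1a interaction was 1.44 ± 0.47 (adjusted p = 0.857).

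The features most like each gene were taken by Pearson r of log2 signal over the 14 arrays, among 1501 others with 1 symbol. The arrays share the 6 groups, and with so many features compared high values arise readily. For Elovl5 they were Enpp3 (0.783), Gucy1b2 (0.759) and Txnrd2 (0.723), and the lowest was Ap2b1 (-0.817). For Scd they were Anp32a (0.864), Tkfc (0.845) and Car5a (0.843), and the lowest was Phgdh (-0.861), the first enzyme of serine synthesis. For Gpam they were Dcaf11 (0.898), Hnf4a (0.786) and Acox3 (0.756), and the lowest was Map3k1 (-0.814). For Srebf1 they were Tor1aip1 (0.657), Tmed10 (0.648) and Slc25a10 (0.637), with Egr1 lowest (-0.809). The Fasn probe sets had different neighbours. X13527cds_s_at was most like Cpsf4 (0.734), Arf1 (0.684) and Fbp1 (0.651), and M76767_s_at most like Pdhb (0.83), Aldh1l1 (0.791) and Id2 (0.774).

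Markers of other cells that make or store fat, or that could be carried in with liver, were summed on the linear scale. Of 9 adipocyte markers 3 were on the array (Cfd, Lep and Lpl), and their sums ran from 822 to 1542 at Wistar day 14, 1220 to 1432 at Wistar day 3 and 1036 to 1214 in controls. Kyoto sums were 885 to 1169 at day 1, 950.1 to 1262 at day 3 and 1083 to 1402 at day 14. Stellate cell and fibroblast markers (7 of 10 on the array) moved with Gpam in Kyoto livers, with sums of 11271 to 12950.1 at day 1, 6544 to 8926 at day 3 and 8957 to 9021 at day 14. In Wistar livers they were 9315 to 10110.0 at day 3, also where Gpam was highest, 6216 to 8709 at day 14 and 5476 to 8962 in controls. Kupffer cell and macrophage markers (5 of 10) summed to 3896 to 4450.1 at Wistar day 3 and 3722 to 5169 at Wistar day 14, against 4996 to 5962 in controls. Acinar markers (2 of 6) summed to 774 to 794 at Wistar day 3 and 618 to 858 at Wistar day 14, against 952 to 1442 in controls, and hepatocyte sums were 158284 to 158902 at Wistar day 3 and 141919 to 159162 at Wistar day 14, against 165420.0 to 167347 in controls. Like Elovl5, both sums were lower on all 5 fed Wistar arrays than on any control, but unlike Elovl5 not on all Kyoto arrays. Kyoto hepatocyte sums were 156553 to 160555 at day 1, 161708 to 170042 at day 3 and 150222 to 155133 at day 14. Kyoto acinar sums lay within the control range, at 1029 to 1335 at day 1, 1233 to 1375 at day 3 and 1088 to 1192 at day 14. At days 3 and 14 together, fed Kyoto and fed Wistar livers, between which Acsl1 passed, also differed in 3 of the sums with no overlap. Endothelial sums (3 of 8 markers) were 567 to 682 in Kyoto, against 410.3 to 457 in Wistar. Acinar sums were 1088 to 1375 in Kyoto, against 618 to 858 in Wistar, and Kupffer cell and macrophage sums 5223 to 6412 in Kyoto, against 3722 to 5169 in Wistar. The part of these markers in the results was not tested.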

How the data were processed

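The deposited values are probe set signals, that is, linear intensities that the authors computed with MAS5, per the submitters' processing notes. Neither its version nor its scaling target was given in the sources used here. Of 4502 rows, 375 rows blank on some of 3 arrays were left out. The log2 intensities were then quantile normalised (limma 3.58.1, R 4.3.3) and floored at their 25th percentile. Control probe sets, 24 in all, were dropped after scaling, and that percentile was taken with them included. The upper 60% of features by mean signal were tested. The platform annotation gave 1 symbol to 3700 probe sets, several to 229 and none to 573. One fit of 6 group means (lmFit, eBayes with trend, 8 residual degrees of freedom, two-sided, Benjamini-Hochberg over 1909 features) gave all adjusted p-values. It was tested on simulated data with known changes. Exact permutation over arrays was run for single genes in the Wistar comparisons and cannot go below 0.1 for 3 arrays against 3 or 2.

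The members and gene lists were chosen with earlier results of these data known. Other genes were named if they passed in a list or had its smallest p in a comparison, or if they were among the 3 most like a member or the 1 least like it. Replicates were numbered in accession order, so numbers pair no arrays. Settings varied were the scaling, the floor, the filter, the probe set rule, the lot batch block, the variance model, array weights and the arrays included. Chosen after the data were seen were fed Wistar against control, the overlap of all fed arrays, blocking on arrays with blank rows, leaving out 2 arrays together, testing every probe set, and M76767_s_at without Wistar control 2.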

Additional observations from a re-analysis of the deposited data

Results flagged for a closer look

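Gpam, the acyltransferase that starts triglyceride synthesis, differed in opposite directions between the strains on U36773_at, the probe set that represents it. Both Kyoto arrays at day 14 lay above both at day 3, as did those of 18.9% of all features. All 3 Wistar arrays at day 14 lay below both at day 3, as did those of 8.54% of features. The nearest arrays of these Wistar groups read 698 and 704 units. The difference between the strains in the change from day 3 to day 14 was 2.319 on the log2 scale, with an adjusted p of 0.850 for the interaction in limma. In the signals as the authors scaled them the Wistar groups overlapped, since the day 14 signals were 722, 282 and 704 units and the day 3 signals 686 and 1317 units. After quantile normalisation the other Gpam probe sets did not all separate so. On U36772_at Kyoto day 3 replicate 2 (259 units) lay above both day 14 arrays (222 and 228). There Wistar day 14 replicate 1 (413) lay above day 3 replicate 1 (289). On U36771_g_at only the Wistar groups overlapped, and on U36773_g_at neither strain's did. On U36771_at most of these arrays were at the floor.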

How the results depend on the processing

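No paired analysis was possible because the labels carry no replicate numbers. In every alternative run, the differences of Elovl5 from control at Wistar days 3 and 14 and on average stayed below 0. Those of Gpam and Fasn stayed above 0 on the probe sets that represent them and on the mean of all their probe sets. M76767_s_at, the Fasn probe set that did not represent the gene, gave -0.29 at day 3. Without Wistar control 2 it gave -0.73 at day 3 and -0.10 for the fed mean. On arrays with no batch given it gave -0.78 at day 3 and -0.025 at day 14. The Gpam probe set U36771_at, at the floor on all arrays compared, gave 0 at day 14. The number of arrays limits what can be told apart. Signals as the authors scaled them and division by each array's median reversed Elovl5 at Kyoto day 14 against day 3 (-0.091 and -0.083), at Wistar day 14 against day 3 (0.157 and 0.169) and in the interaction (-0.248 and -0.252), and Srebf1 at Wistar day 3 against control (-0.034 and -0.049). The Fasn interaction was -0.003 with the mean of its probe sets, and the Scd interaction 0.007 with the lot batch block. With single arrays left out, Elovl5 ran from -0.193 to 0.252 for Kyoto day 14 against day 3, -0.163 to 0.023 for Wistar day 14 against day 3 and -0.123 to 0.322 in the interaction. Fasn ran from -0.556 to 0.173 for fed Kyoto against fed Wistar, -0.114 to 0.89 for Kyoto day 14 against day 1, -1.394 to 0.064 for Kyoto day 3 against day 1 and -0.148 to 1.311 in the interaction. Scd ran from -0.479 to 0.248 for Kyoto day 3 against day 1, -0.97 to 0.766 in the interaction and -0.237 to 0.568 for Wistar day 14 against control. Srebf1 ran from -0.498 to 0.322 for Kyoto day 3 against day 1, -0.285 to 1.016 in the interaction, -0.134 to 1.167 for Wistar day 14 against day 3 and -0.54 to 0.761 for Wistar day 3 against control. Of the 5 genes, array weights called 1 (Gpam) at Wistar day 3 against control, 1 (Gpam) for fed Kyoto against fed Wistar and 2 (Fasn at 2.226, Gpam at 1.663) for fed Wistar against control; without single arrays 0 to 1 was called for fed Kyoto against fed Wistar. Over all features, the count for fed Kyoto against fed Wistar (62) was 1 with no filter, 40 with the upper 40%, 20 with the lot batch block, 103 with only those groups in the fit, 135 with array weights, 2 with every probe set and 12 to 58 without single arrays. For fed Wistar against control (5) it was 1 with either other scaling, with only those groups, with no trend and with every probe set, 0 with no floor, no filter, the lot batch block or the blank-row block, 3 with the upper 40%, 15 with array weights, 9 without 2 arrays and 0 to 14 without single arrays. For Kyoto day 14 against day 1 (1) it was 3 with no filter or every probe set, 2 with the mean of probe sets, 0 with only those groups or array weights, and 0 to 160 without single arrays (160 without Kyoto day 1 replicate 2). For Kyoto day 14 against day 3 (0) it was 1 with no filter, array weights or every probe set. For Kyoto day 3 against day 1 (0) it was 2 with no filter or every probe set and 0 to 74 without single arrays (74 without Kyoto day 1 replicate 2). For Wistar day 14 against control (0) it was 1 with array weights, 5 without 2 arrays and 0 to 7 without single arrays. For Wistar day 14 against day 3 (0) it was 1 with every probe set. For Wistar day 3 against control (0) it was 4 with the mean of probe sets, 5 with only those groups, 18 with array weights, 5 without 2 arrays and 2 with every probe set. The cause of these shifts was not tested.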
